A study of Oryza sativa Japonica Group with 20 samples.

Results

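Shoots and roots of rice seedlings kept in 80 µM sodium arsenite were compared over their messenger RNA, at 6 h and at 24 h of exposure. The plants were 14-day-old seedlings of the japonica cultivar Nipponbare, grown hydroponically in diluted Hoagland nutrient solution, and arsenite is the trivalent, poisonous form of arsenic found in flooded soils. The 80 µM groups are a root and a shoot library at 6 h and a root and a shoot library at 24 h, that is, 4 libraries in 4 groups with 1 library each. The whole series also holds untreated plants at 0 h and plants in 20 µM arsenite at 6 h and 24 h, again with 1 messenger RNA library per tissue, and no untreated 6 h sample was analysed here. Values are RPKM, reads scaled to gene length and to library size, so that levels of different genes can be set side by side. Of the 57624 loci in the tables, 15870 loci had a level of 5 RPKM or more somewhere among the 4 libraries and were compared; the rest were left out. The tissue difference of a locus is the log2 of (RPKM + 1) in shoots minus that in roots at the same hour, so a positive value means higher in shoots. No group has a replicate, and a locus was counted only where it was at least 2-fold apart in the same direction at both times, which is a description and not a test.

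Leaves of rice make sugar from light through photosystems, Rubisco and the Calvin cycle, while roots take up water, silicon, iron, phosphate and nitrate and load them into the xylem. Arsenite enters rice roots largely through silicon channels, binds protein thiols, and is held back in root cells as complexes with glutathione and phytochelatins, thiol peptides whose sulfur comes from sulfate reduced in the cell. Misfolded proteins call up heat shock factors and the chaperones they control. The pathway names in the title of the series are transporters, plant hormones and lipid metabolism.

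The 4 libraries were uneven in ways that touch every count below. Loci at 5 RPKM or more numbered 8016 in roots at 6 h, 9678 in roots at 24 h, 12158 in shoots at 6 h and 9129 in shoots at 24 h. Between tissues, the median difference over all 15870 loci was 0.82 at 6 h and -0.29 at 24 h. Scaling the 4 libraries by median ratios, as the size factors of count data are made, brought those medians to 0.07 and 0.00. Low values of the same loci put the worth of 1 read in roots at 24 h, shoots at 6 h and shoots at 24 h at 0.801, 1.09 and 1.17 times its worth in roots at 6 h; the absolute depth is unknown. Over the loci compared, Pearson's r of log2(RPKM + 1) was 0.849 between the 2 root libraries, 0.609 between the 2 shoot libraries and between 0.205 and 0.314 for a root with a shoot library. Loci are not independent replicates.

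Marker genes were read in the 4 libraries to check the tissue labels. The 9 markers of green tissue, among them the light-harvesting genes CAB1R and CAB2R, summed to 21.9 and 63.3 RPKM in the root libraries at 6 h and 24 h and to 3569.9 and 8475.6 RPKM in the shoot libraries. The 9 root markers, among them the silicon channel gene LSI1 and the iron transporter genes YSL15 and IRT1, summed to 180.7 and 79.1 RPKM in the root libraries, against 838.5 RPKM in untreated roots, and to 68.2 and 50.5 RPKM in the shoot libraries. Most of the root sum at 80 µM was PT8, a phosphate transporter gene, at 168.8 and 61.4 RPKM. LSI1 was at 0.4 and 1.7 RPKM, YSL15 at 0.3 and 0.8 RPKM and IRT1 at 1.1 and 1.3 RPKM in those roots. There 1 root marker reached 5 RPKM at 6 h and 2 did at 24 h, and none was listed at 0. In each shoot library at 80 µM 1 root marker reached 5 RPKM, and LSI1 was higher there than in roots of the same hour. As a set, the root markers thus gave little check of the labels at 80 µM. In whole organs, fewer cells of a type and less RNA per cell cannot be told apart.

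Clock genes were read as a possible guide to the hour of harvest. Whether arsenite or the organ also moved them was not tested. The log2 level of LHY, a gene that peaks at dawn, minus the mean of the daytime clock genes GI, PRR1 and PRR95 was -2.14 in roots and -0.03 in shoots at 6 h. At 24 h, which is the starting hour again, it was -1.79 in roots and 6.44 in shoots, while untreated plants at 0 h had 1.88 in roots and 3.36 in shoots. The 2 tissues thus differed in this measure in untreated plants, at 6 h and most at 24 h. Whether the hour set this was not tested, nor was its part in the 24 h differences. In 20 µM shoots the same measure was 3.06 in the library labelled 6 h and -0.02 in the one labelled 24 h. That is the reverse of the order in 80 µM shoots. Whether those labels stand in the right order was not tested. Values given below by time at 20 µM follow the labels and carry this doubt.

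At 6 h, 7397 loci (46.6%) were at least 2-fold higher in shoots and 3327 loci (21.0%) at least 2-fold higher in roots. At 24 h the order turned, with 4180 loci (26.3%) higher in shoots and 5495 loci (34.6%) higher in roots. At both times 3126 loci (19.7%) were higher in shoots and 2537 loci (16.0%) higher in roots. A further 1037 loci (6.53%) were higher in shoots at 6 h and in roots at 24 h, and 140 loci (0.882%) went the other way. Median ratio scaling gave 5119 loci higher in shoots and 4910 loci higher in roots at 6 h, and 4821 and 4566 loci at 24 h. With it, 2819 loci were higher in shoots and 2935 loci higher in roots at both times, and the loci that turned numbered 445 and 407. The excess of shoot-high loci at 6 h, of root-high loci at 24 h and of loci that turned from shoots to roots therefore depended on the scaling. Next to the thresholds, 814 loci had a highest value of 5.0 to 5.5 RPKM and 729 loci one of 4.5 to 4.9 RPKM, and the smaller of the 2 differences lay between 1.0 and 1.1 for 384 loci and between 0.9 and 1.0 for 356 loci.

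**Figure D1:**
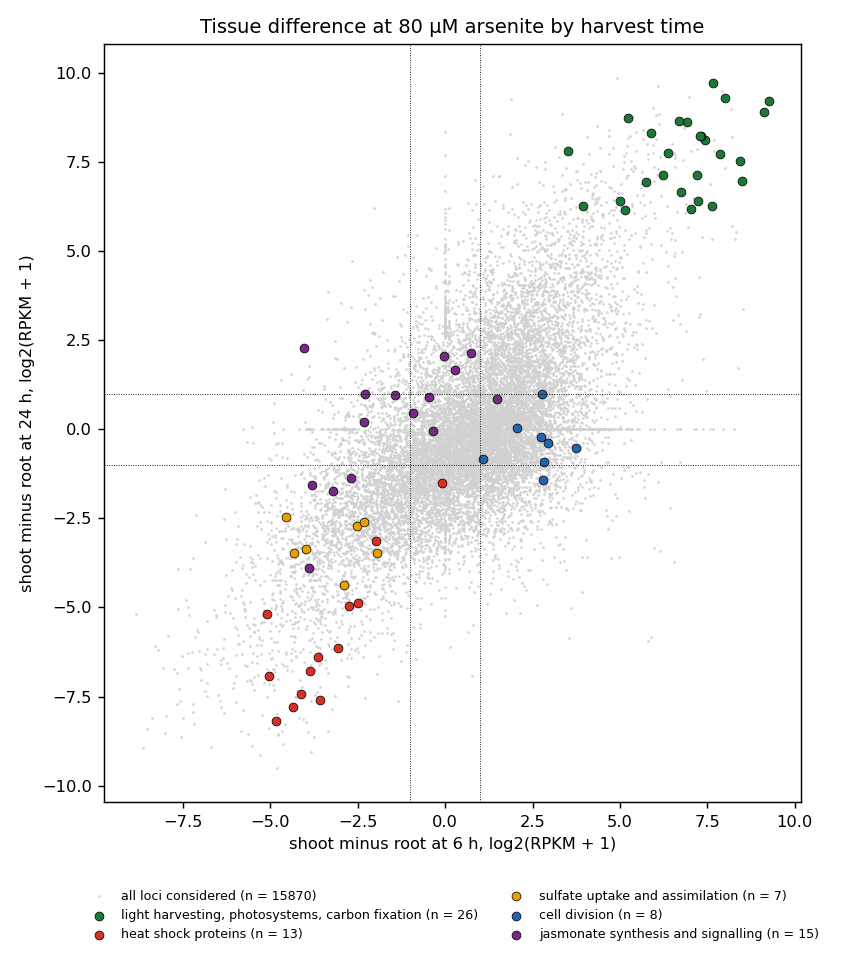
Shoot minus root difference at 24 h (vertical axis) against that at 6 h (horizontal axis), both in log2(RPKM + 1), for the 15870 loci compared in grey and for members of gene lists in colour; dotted lines mark 2-fold. The 26 loci of light harvesting, photosystems and carbon fixation lie at the upper right, the heat shock and sulfate loci at the lower left, and most cell division loci right of the 2-fold line at 6 h but not above it at 24 h.

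A limma model over all 10 messenger RNA libraries, with the 5 conditions as blocks, gave the tissue effect at 80 µM a test. Its residual is how tissue differences vary over conditions and not a spread between replicates. Of 18667 loci at 5 RPKM or more in any of the 10 libraries, 2178 loci (11.7%) were higher in shoots and 1759 loci (9.42%) higher in roots at an adjusted p below 0.05. With the 4 libraries at 80 µM alone, which leave 1 residual degree of freedom, limma called 0 loci, and 1916 loci higher in shoots and 1975 loci higher in roots had an unadjusted p below 0.05.

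Most shoot-high loci were already shoot-high without arsenite. Of the 3126 loci higher in shoots at both times, 1812 (58.0%) were also at least 2-fold higher in shoots in the untreated pair, and 107 (3.42%) were higher in untreated roots. Of the 2537 loci higher in roots, 1110 (43.8%) were higher in untreated roots and 210 (8.28%) in untreated shoots. Among all 15870 loci, 3424 (21.6%) were higher in untreated shoots and 2546 (16.0%) in untreated roots. In the shoot-high set the median level at 80 µM, averaged over the times, was 1.1 RPKM in roots and 15.75 RPKM in shoots, and in the untreated plants 5 RPKM in roots and 15.9 RPKM in shoots. The root-high set stood at 27.95 RPKM in roots and 2.85 RPKM in shoots, and at 9.9 and 3.6 RPKM untreated. Both root libraries listed 628 of the shoot-high loci at 0, and both shoot libraries listed 513 of the root-high loci at 0.

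Gene lists of 348 loci in 35 groups were used to describe the difference by function, and 293 of these loci were among the 15870. Members are named where the reference annotation lists the symbol at the expected place, which held for 245 loci; the others are counted but not named. Members were named for the size of their difference at both times, so that their root and shoot values lie apart follows from that choice. A member that reached 5 RPKM through 1 organ alone had to be higher there at some hour, if only slightly. The counts among compared members therefore describe those members and not the whole list. The shares over all loci carry the same filter: 5218 loci reached 5 RPKM in shoots alone and 2393 loci in roots alone. Counts of members are to be read against the shares over all loci, 19.7% higher in shoots and 16.0% higher in roots at both times, and 11.7% and 9.42% by limma. The medians of the lists at 6 h and 24 h, beside those of the untreated pair, run from the photosystem subunits at the top to the heat shock proteins at the bottom.

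**Figure D2:**
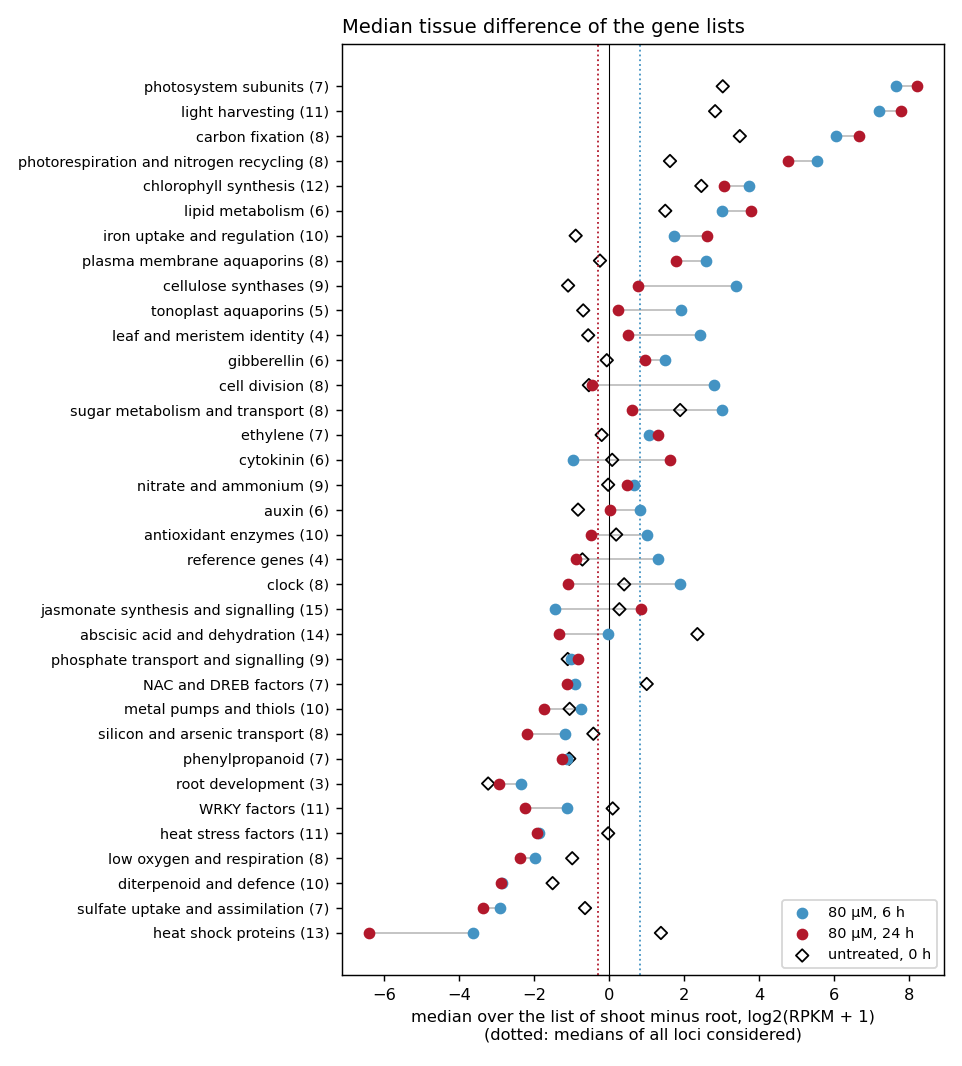
Median shoot minus root difference in log2(RPKM + 1) for each gene list (number of members compared in brackets), at 80 µM after 6 h (blue) and 24 h (red) and in the untreated pair (open diamonds); dotted lines are the medians over all loci compared, 0.82 at 6 h and -0.29 at 24 h. Photosynthesis lists lie at the right at all 3 points, heat shock proteins at the left at 80 µM with an untreated median of 1.38, and the iron, aquaporin and cellulose synthase lists right of 0 at 80 µM and left of 0 untreated.

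Photosynthesis separated the organs most. All 11 light-harvesting loci, all 7 photosystem and electron transport loci and all 8 carbon fixation loci were higher in shoots at both times, against 19.7% of all loci, and limma called all 26 of them in that direction, against 11.7%. RCABP89 (LOC_Os03g39610), a chlorophyll-binding protein of the light-harvesting antenna, stood at 1.8 and 1.5 RPKM in roots and at 486.3 and 684.1 RPKM in shoots at 6 h and 24 h. Those levels are 270-fold and 456-fold apart, and the limma effect was 7.77 with a standard error of 0.62 (log2; adjusted p = 0.000916). CAB1R (LOC_Os09g17740), another antenna protein, was at 2.2 and 1.8 RPKM in roots and 345.5 and 281.5 RPKM in shoots. For CAB2R (LOC_Os01g41710) the roots had 1.3 and 2.1 RPKM and the shoots 458.0 and 235.4 RPKM. Both antenna genes stood lower in shoots at 24 h than at 6 h, unlike RCABP89.

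PETC (LOC_Os07g37030), the Rieske iron-sulfur protein of the cytochrome complex, was at 1.2 RPKM in roots at 6 h and listed at 0 at 24 h, with 129.6 and 314.3 RPKM in shoots. Rubisco activase, RCA (LOC_Os11g47970), had 4.0 and 20.3 RPKM in roots and 756.6 and 1810.0 RPKM in shoots, the last being the highest value of the 24 h shoot library. The Rubisco small subunit gene RBCS2 (LOC_Os12g17600) had 3.8 and 20.5 RPKM in roots and 630.3 and 1545.1 RPKM in shoots, 166-fold and 75.4-fold apart. RCA and RBCS2 were thus both higher at 24 h than at 6 h in both organs. FBPase (LOC_Os03g16050), the plastid fructose-1,6-bisphosphatase of the Calvin cycle, was listed at 0 and at 0.7 RPKM in roots and stood at 102.4 and 685.8 RPKM in shoots. In untreated roots these genes were not near 0: RCA was at 99.9 RPKM, CAB2R at 56.7 RPKM and RCABP89 at 41.9 RPKM, against 834.6, 283.7 and 355.1 RPKM in untreated shoots. The light-harvesting median was 2.83 in the untreated pair and 7.20 and 7.79 at 80 µM, and the limma contrast of 80 µM with the other 3 conditions gave adjusted p = 0.21 for RCABP89 and 0.35 for CAB1R.

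Chlorophyll synthesis followed, with exceptions. Of 12 loci, 10 were higher in shoots at both times and none in roots, against 19.7% and 16.0% of all loci. By limma 10 were called in shoots, against 11.7%. GLK1 (LOC_Os06g24070) and GLK2 (LOC_Os01g13740) encode the transcription factors that switch on chloroplast genes; GLK1 was at 0.4 RPKM in roots at 6 h and listed at 0 at 24 h, and at 99.5 and 91.6 RPKM in shoots. GLK2 was at 0.2 RPKM in roots and then listed at 0, with 37.2 and 68.7 RPKM in shoots. CHLH (LOC_Os03g20700), the large subunit of magnesium chelatase, was listed at 0 and at 0.2 RPKM in roots and stood at 47.9 and 140.3 RPKM in shoots. Its partner subunit CHLI (LOC_Os03g36540) had 0.7 and 2.6 RPKM in roots and 37.3 and 97.6 RPKM in shoots. All 4 were below 3 RPKM in roots and above 37 RPKM in shoots. PORA, which reduces protochlorophyllide in the light, was listed at 0 in both root libraries and differed between the shoot libraries, with 332.7 RPKM at 6 h and 2.3 RPKM at 24 h, so that its difference was 8.38 and 1.72. HEMA1, the glutamyl-tRNA reductase that starts the pathway, was the named exception, with 87.8 and 44.8 RPKM in roots and 61.3 and 62.9 RPKM in shoots.

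In photorespiration, which recycles the by-product of Rubisco's oxygenase, 6 of 8 loci were higher in shoots at both times and none in roots. The shares over all loci were 19.7% and 16.0%. GLO1 (LOC_Os03g57220), a peroxisomal glycolate oxidase, had 0.8 RPKM in roots at 6 h and was listed at 0 at 24 h, with 89.4 and 336.2 RPKM in shoots. GS2 (LOC_Os04g56400), the plastid glutamine synthetase, had 0.5 and 1.3 RPKM in roots and 71.3 and 247.8 RPKM in shoots. The catalase gene CATA (LOC_Os02g02400) was listed at 0 and at 3.2 RPKM in roots, with 363.0 and 42.8 RPKM in shoots. These 3 were apart in all 4 libraries, and CATA, unlike GLO1 and GS2, was lower in shoots at 24 h than at 6 h. ABC1, the ferredoxin-dependent glutamate synthase, differed less, with 42.9 and 23.5 RPKM in roots and 53.1 and 204.8 RPKM in shoots (adjusted p = 0.10). CATB, a catalase of non-green tissue, was at 37.7 and 63.4 RPKM in roots and 51.9 and 6.8 RPKM in shoots.

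Silicon and arsenic transport was split. Of 10 loci, 8 were compared, with 1 higher in shoots and 4 in roots at both times, against 19.7% and 16.0% of all loci. LSI1, the influx channel through which silicic acid and arsenite enter root cells, reached 5 RPKM in none of the 4 libraries, with 0.4 and 1.7 RPKM in roots and 4.3 and 4.6 RPKM in shoots, and stood at 59.7 RPKM in untreated roots. LSI2 (LOC_Os03g01700), the efflux carrier that moves both on toward the xylem, was at 1.3 and 5.9 RPKM in roots and listed at 0 in both shoot libraries, against 103.9 RPKM in untreated roots; limma did not call it (adjusted p = 0.11). LSI6 (LOC_Os06g12310), the channel that unloads silicon in leaves, was listed at 0 and at 0.3 RPKM in 80 µM roots and stood at 8.4 and 51.0 RPKM in shoots (adjusted p = 0.0044). Untreated roots and shoots had 29.4 and 32.9 RPKM of LSI6, so the organs were close there and far apart at 80 µM; the contrast with the other conditions had adjusted p = 0.25. ACR2.1 and ACR2.2, arsenate reductase-like genes, did not part 2-fold at both times: ACR2.1 had 56.0 and 33.5 RPKM in roots and 16.7 and 23.6 RPKM in shoots.

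Sulfate assimilation stood higher in roots as a whole. All 7 loci were at least 2-fold higher in roots at both times, against 16.0% of all loci, limma called all 7, against 9.42%, and all 7 held under median ratio scaling. APR1 (LOC_Os07g32570), the adenylyl sulfate reductase that commits sulfate to reduction, had 485.2 and 359.3 RPKM in roots and 29.7 and 34.1 RPKM in shoots, 16.3-fold and 10.5-fold apart (adjusted p = 0.012). OASTL1 (LOC_Os12g42980), an O-acetylserine thiol-lyase that makes cysteine, had 133.8 and 176.8 RPKM in roots and 33.9 and 14.9 RPKM in shoots (adjusted p = 0.0093). Untreated, APR1 stood at 30.7 RPKM in roots and 99.1 RPKM in shoots, and the list's median was -0.64 untreated against -2.90 and -3.36 at 80 µM. For the contrast with the other conditions APR1 had adjusted p = 0.33.

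Among metal pumps and thiol proteins, 10 of 13 loci were compared. Of these, 2 were higher in shoots and 5 in roots, against 19.7% and 16.0% of all loci. HMA5 (LOC_Os04g46940), a copper pump that loads the xylem, had the largest smaller-of-both-times difference of any named root-high locus. It stood at 282.6 and 240.8 RPKM in roots and 5.2 and 1.6 RPKM in shoots, 54.3-fold and 150-fold apart (limma effect -6.03, standard error 0.64, adjusted p = 0.0011). Untreated roots had 23.7 RPKM and untreated shoots 2.8 RPKM, and the contrast of 80 µM with the other conditions gave adjusted p = 0.20. HMA9 (LOC_Os06g45500), a metal export pump, had 101.5 and 71.9 RPKM in roots and 14.2 and 5.8 RPKM in shoots. HMA2 (LOC_Os06g48720), a zinc and cadmium pump, had 21.9 and 20.6 RPKM in roots and 2.4 and 0.6 RPKM in shoots. Both were called by limma (adjusted p = 0.0043 and 0.011), and HMA4, a vacuolar copper pump with 44.3 and 42.5 RPKM in roots and 20.8 and 10.7 RPKM in shoots, was not (adjusted p = 0.071).

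**Figure D3:**
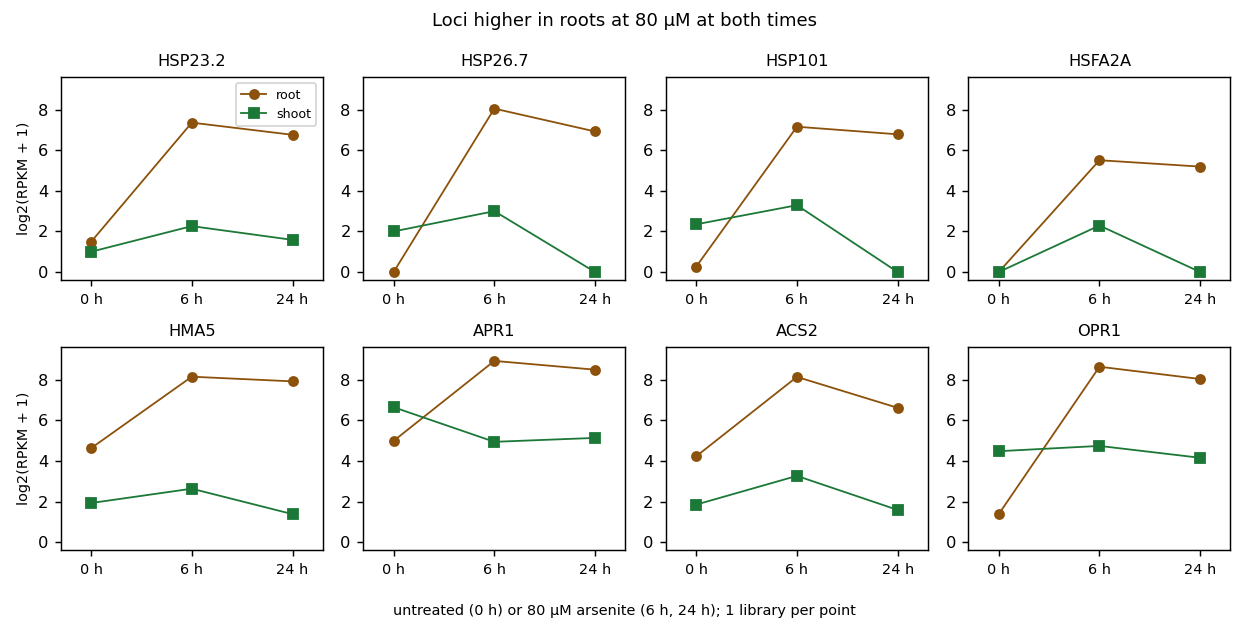
log2(RPKM + 1) of 8 loci in roots (brown circles) and shoots (green squares), untreated at 0 h and at 80 µM after 6 h and 24 h; each point is 1 library. Roots lie above shoots at both 80 µM times in every panel, whereas at 0 h the shoot point is the higher one for HSP26.7, HSP101, APR1 and OPR1 and both HSFA2A points are at 0.

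Heat shock genes stood on the root side. Of 14 heat shock protein loci, 13 were compared and 12 were higher in roots at both times, against 16.0% of all loci, none in shoots, and limma called 12 in roots, against 9.42%. HSP23.2 (LOC_Os04g36750), a small heat shock protein, had 163.2 and 107.3 RPKM in roots and 3.8 and 2.0 RPKM in shoots, 42.9-fold and 53.6-fold apart (effect -5.14, standard error 0.58, adjusted p = 0.0013). HSP26.7 (LOC_Os03g14180), which is sent to plastids, had 264.0 and 120.4 RPKM in roots, 7.0 RPKM in shoots at 6 h and was listed at 0 there at 24 h. The cytosolic HSP16.9A (LOC_Os01g04370) had 276.1 and 222.5 RPKM in roots, 12.5 RPKM in shoots at 6 h and 0 listed at 24 h. All 3 were above 100 RPKM in both root libraries and at most 12.5 RPKM in shoots.

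HSP16.9B (LOC_Os01g04380) lies next to HSP16.9A and had 197.8 and 172.1 RPKM in roots, with 10.5 RPKM and a listed 0 in shoots; how reads shared by such near copies were counted is not known. HSP101 (LOC_Os05g44340), the disaggregase that rescues clumped proteins, had 141.8 and 109.2 RPKM in roots and 8.8 RPKM and a listed 0 in shoots. HSP18.1 (LOC_Os03g16030) had 251.3 and 190.5 RPKM in roots and 19.9 RPKM and a listed 0 in shoots. Shoots thus held low levels of these chaperones at 6 h, between 3.8 and 19.9 RPKM, and at most 2.0 RPKM at 24 h. The other 4 named root-high members, the small heat shock genes HSP17.9A, HSP17.4 and HSP24.1 and the HSP90 gene HSP81-1, kept more in shoots, from 53.4 to 96.1 RPKM at 6 h and from 3.1 to 34.5 RPKM at 24 h, below 156.3 to 453.9 RPKM in roots. The list's median difference was -3.63 at 6 h and -6.39 at 24 h, against 1.38 in the untreated pair and -1.33 and 0.00 in the 20 µM pairs as labelled 6 h and 24 h. In untreated roots HSP101 was at 0.2 RPKM and HSP26.7, HSP16.9A, HSP16.9B and HSP18.1 were listed at 0.

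Of 12 heat stress transcription factor loci, 11 were compared. Of these, 6 were higher in roots and none in shoots at both times, against 16.0% and 19.7% of all loci. By limma 5 were called in roots, against 9.42%. HSFA2A (LOC_Os03g53340), a factor that drives small heat shock protein genes, had 44.5 and 35.6 RPKM in roots and 3.9 RPKM and a listed 0 in shoots, and was listed at 0 in both untreated organs (adjusted p = 0.0049). HSFA4D had 22.9 and 15.7 RPKM in roots and 2.1 and 2.3 RPKM in shoots. HSFB2C, of the class without an activation domain, had 17.4 and 17.5 RPKM in roots and 1.4 and 3.9 RPKM in shoots. HSFB2B was lower, 7.1 and 3.7 RPKM in roots against 0.9 and 0.2 RPKM in shoots, and limma did not call it (adjusted p = 0.068). HSFA2E stood the other way, with 6.0 and 13.9 RPKM in roots and 24.5 and 14.6 RPKM in shoots, a difference that was 0.07 at 24 h.

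Iron acquisition loci that reached 5 RPKM were mostly higher in shoots. Of 18 loci, 10 were compared, and the other 8 stayed under 5 RPKM in all 4 libraries. Of the 10, 6 were higher in shoots and none in roots at both times, against 19.7% and 16.0% of all loci. Under median ratio scaling 5 were higher in shoots and 1 in roots. By limma, 3 of 18 tested were called in shoots, against 11.7%. NAS1, NAS2, IRT2 and NAAT1 reached 5 RPKM in shoots alone, and with no minimum the median of the mean difference over both times was 1.01 in place of 2.35. NAS1 (LOC_Os03g19427), which makes the metal chelator nicotianamine, was listed at 0 and at 0.9 RPKM in roots and stood at 8.8 and 45.8 RPKM in shoots. In untreated plants NAS1 had 297.0 RPKM in roots and 20.0 RPKM in shoots, and limma did not call it at 80 µM (adjusted p = 0.093). NRAMP1 (LOC_Os07g15460), an iron and cadmium transporter, had 4.0 and 13.3 RPKM in 80 µM roots and 43.8 and 199.4 RPKM in shoots (adjusted p = 0.0023), with 64.5 and 64.9 RPKM untreated. Both were higher in shoots at 24 h than at 6 h.

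IRT2 (LOC_Os03g46454), an iron-regulated transporter, was listed at 0 and at 1.4 RPKM in roots and stood at 7.8 and 14.7 RPKM in shoots (adjusted p = 0.0078). IRO3 (LOC_Os03g26210), a basic helix-loop-helix regulator of iron genes, had 3.8 and 26 RPKM in roots and 30.6 and 151.6 RPKM in shoots (adjusted p = 0.0060). NAS3 stood against the list, with 4.0 and 11.9 RPKM in roots and 2.2 RPKM and a listed 0 in shoots. The list's median was -0.89 in the untreated pair and 1.73 and 2.60 at 80 µM. The contrast with the other conditions gave adjusted p = 0.14 for IRT2, 0.16 for NRAMP1 and 0.34 for NAS1.

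Water channels of the plasma membrane that reached 5 RPKM were also mostly higher in shoots. Of 11 loci, 8 were compared. Of these, 6 were higher in shoots and none in roots at both times, against 19.7% and 16.0% of all loci. By limma, 5 of 10 tested were called in shoots, against 11.7%. PIP2-7, PIP2-2 and PIP2-6 reached 5 RPKM in shoots alone. With no minimum the median of the mean difference over both times was 1.70 in place of 2.13. PIP2-7 (LOC_Os09g36930) was listed at 0 in both root libraries and in untreated roots, and had 27.5 and 84.4 RPKM in shoots. PIP2-2 (LOC_Os02g41860) had 0.8 and 1.3 RPKM in roots and 34.4 and 45.2 RPKM in shoots, 43.0-fold and 34.8-fold apart (adjusted p = 0.0024), whereas untreated roots had 58.5 RPKM and untreated shoots 37.1 RPKM. PIP2-6 (LOC_Os04g16450) had 2.7 and 2.1 RPKM in roots and 338.8 and 25.0 RPKM in shoots, with 99.8 and 204.8 RPKM untreated. Shoot levels of PIP2-2 were near the untreated level at both times, and those of PIP2-6 were above it at 6 h and below it at 24 h. PIP1-2 had 67.8 and 40.7 RPKM in roots and 278.4 and 182.8 RPKM in shoots. PIP1-3, with 61.8 and 48.7 RPKM in roots and 27.9 and 44.8 RPKM in shoots, was the named member with the opposite sign at both times.

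In the tonoplast, 2 of 5 water channel loci were higher in shoots and 1 in roots at both times, against 19.7% and 16.0% of all loci. TIP1-2 had 6.5 and 5.2 RPKM in roots and 45.3 and 82.9 RPKM in shoots (adjusted p = 0.0077). TIP1-1 had 120.8 and 42.6 RPKM in roots and 458.1 and 133.9 RPKM in shoots (adjusted p = 0.035). TIP2-1, at 133.7 RPKM in untreated roots, had 8.7 and 4.0 RPKM in 80 µM roots and a listed 0 and 1.5 RPKM in shoots, exactly 2-fold apart on the scale used at 24 h (adjusted p = 0.054).

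**Figure D4:**
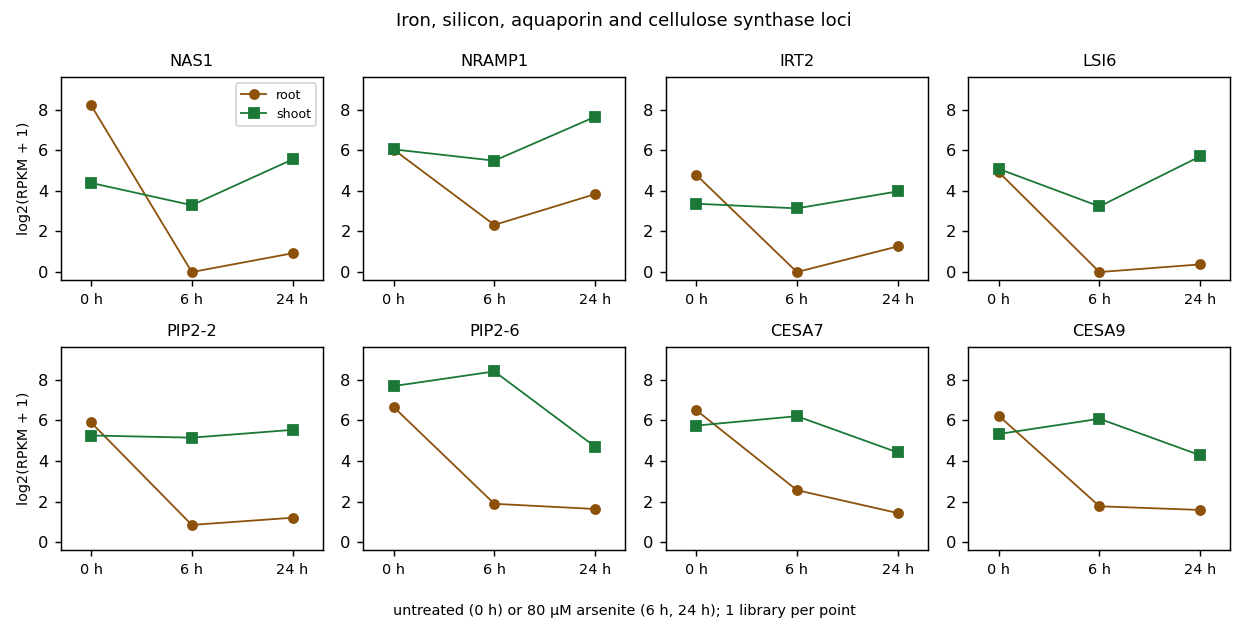
log2(RPKM + 1) of iron, silicon, aquaporin and cellulose synthase loci in roots (brown circles) and shoots (green squares), untreated at 0 h and at 80 µM after 6 h and 24 h; each point is 1 library. Shoots lie above roots in every panel at both 80 µM times, and the root point at 0 h lies far above the root points at 80 µM.

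Phosphate and nitrogen genes were mixed. Of 10 phosphate loci, 9 were compared. Of these, none was higher in shoots and 3 in roots at both times, against 19.7% and 16.0% of all loci. By limma 1 was called in roots, against 9.42%. PT2 (LOC_Os03g05640), a phosphate transporter, had 18.5 and 14.8 RPKM in roots and was listed at 0 in every shoot library, treated or not (adjusted p = 0.0030). SPX2, a phosphate sensor gene, had 10.4 and 7.3 RPKM in roots and 2.8 and 2.3 RPKM in shoots. PHO1-2, which loads phosphate into the xylem, had 10.1 and 7.9 RPKM in roots and 4.5 and 1.2 RPKM in shoots, and neither of these 2 was called by limma (adjusted p = 0.13 and 0.091). PT1, at 16.8 and 39.0 RPKM in roots and 91.0 and 64.4 RPKM in shoots, and SPX1, at 3.2 and 1.1 RPKM in roots and 6.6 and 6.7 RPKM in shoots, had the opposite sign without reaching 2-fold at both times. PT4, another phosphate transporter, had 12.5 and 11.6 RPKM in roots and 0.6 and 6.1 RPKM in shoots.

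Of 17 nitrate and ammonium loci, 9 were compared. Of these, 2 were higher in shoots and none in roots at both times, against 19.7% and 16.0% of all loci. NIA1, a nitrate reductase, had 0.9 and 1.9 RPKM in roots and 2.0 and 58.4 RPKM in shoots, so its difference rested on the 24 h shoot library. The cytosolic glutamine synthetase genes were not 2-fold apart at both times, GLN1-1 with 47.1 and 48.4 RPKM in roots and 81.7 and 53.3 RPKM in shoots, and GLN1-2 with 20.5 and 24.2 RPKM in roots and 3.7 and 19.7 RPKM in shoots, the latter 5.54-fold higher in roots at 6 h.

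Cellulose synthase genes had larger differences toward shoots at 6 h than at 24 h, which was not tested, and all loci moved the same way, from a median of 0.82 to -0.29. Of 9 loci, 4 were higher in shoots at both times and none in roots, against 19.7% and 16.0% of all loci. The list's median difference was 3.39 at 6 h and 0.77 at 24 h, against -1.10 in the untreated pair. Among those for secondary walls, CESA7 (LOC_Os10g32980) had 4.9 and 1.7 RPKM in roots and 72.7 and 20.4 RPKM in shoots (adjusted p = 0.011). CESA9 (LOC_Os09g25490) had 2.4 and 2.0 RPKM in roots and 66.5 and 18.4 RPKM in shoots, and CESA4 had 3.4 and 2.3 RPKM in roots and 32.7 and 10.9 RPKM in shoots. The primary wall gene CESA3 had 4.6 and 8.7 RPKM in roots and 73.0 and 29.6 RPKM in shoots. In untreated plants the roots were higher for all 4, CESA7 for one with 89.8 RPKM in roots and 52.4 RPKM in shoots, and all 4 were lower at 24 h than at 6 h in the shoots. CESA7 had adjusted p = 0.36 for the contrast with the other conditions.

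Cell division genes stood higher in shoots at 6 h than at 24 h. Of 10 loci, 8 were compared, with a median difference of 2.78 at 6 h and -0.45 at 24 h, and limma called none at 80 µM. CDKB2-1, a mitotic cyclin-dependent kinase, was the single member higher in shoots at both times, with 1.7 RPKM and a listed 0 in roots and 17.3 and 1.0 RPKM in shoots, the last being exactly at the threshold. PCNA, the sliding clamp of DNA replication, was past 2-fold toward shoots at 6 h, with 1.4 and 15.8 RPKM in roots and shoots, and toward roots at 24 h, with 6.3 and 1.7 RPKM. CDKB1-1 had 0.6 and 3.3 RPKM in roots and 5.7 and 3.4 RPKM in shoots. The difference between 6 h and 24 h was not tested. Reference genes used for normalization had the same signs: ACT1, an actin gene, had 31.1 and 76.0 RPKM in roots and 125.8 and 38.5 RPKM in shoots, a difference of 1.98 at 6 h and -0.96 at 24 h. The 4 reference genes had a median of 1.30 at 6 h and -0.89 at 24 h, next to 0.82 and -0.29 over all loci.

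Within each hormone list, members did not all go the same way. For ethylene, 3 of 7 loci compared were higher in shoots and 1 in roots, and limma called the same numbers. The shares over all loci were 19.7% and 16.0% at both times, and 11.7% and 9.42% by limma. ACS2 (LOC_Os04g48850), which makes the ethylene precursor ACC, had 280.7 and 97.0 RPKM in roots and 8.6 and 2.0 RPKM in shoots, 32.6-fold and 48.5-fold apart (effect -4.95, standard error 0.56, adjusted p = 0.0013). ACO1 (LOC_Os09g27820), which turns ACC into ethylene, stood the other way, with 1.0 RPKM and a listed 0 in roots and 62.2 and 42.1 RPKM in shoots (adjusted p = 0.0011). RNA of ACS2 and ACO1 thus stood on opposite sides, which does not place other synthase or oxidase genes. Untreated plants had 17.7 and 2.6 RPKM of ACS2 and 0.5 and 45.7 RPKM of ACO1 in roots and shoots. EIL1, a transcription factor of the pathway, had 4.2 and 3.4 RPKM in roots and 6.4 and 9.8 RPKM in shoots, and ETR2, a receptor, had 44.0 and 35.5 RPKM in roots and 33.5 and 17.2 RPKM in shoots, neither 2-fold apart at both times.

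Jasmonate genes had 4 of 15 loci higher in roots at both times, against 16.0% of all loci, and none in shoots, and limma called 4 in roots, against 9.42%. OPR1 (LOC_Os06g11290), an oxophytodienoate reductase with near copies in the genome, had 397.5 and 260.9 RPKM in roots and 25.7 and 16.8 RPKM in shoots, 15.5-fold apart at both times (adjusted p = 0.048). AOS2, an allene oxide synthase, had 221.8 and 87.8 RPKM in roots and 14.9 and 29.1 RPKM in shoots (adjusted p = 0.022). JAR1, which links jasmonate to isoleucine, had 122.9 and 56.3 RPKM in roots and 18.0 and 21.0 RPKM in shoots (adjusted p = 0.032). JAZ11, a repressor of the pathway, had 337.3 and 177.2 RPKM in roots and 35.5 and 52.7 RPKM in shoots (adjusted p = 0.049). The shoot levels were lower at 6 h than at 24 h except for OPR1. The receptor gene COI1A, with 8.5 and 9.6 RPKM in roots and 25.5 and 18.2 RPKM in shoots, the cyclase gene AOC, with 29.3 and 16.9 RPKM in roots and 49.4 and 77.7 RPKM in shoots, and JAZ1, with 30.9 and 23.0 RPKM in roots and 37.6 and 75.6 RPKM in shoots, had the opposite sign but were not 2-fold apart at both times.

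Abscisic acid and dehydration genes had 4 loci on each side among 14 compared, against 19.7% and 16.0% of all loci, and 2 in shoots and 4 in roots under median ratio scaling. On the shoot side were the abscisic acid hydroxylase genes ABA8OX1, with 32.2 and 14.5 RPKM in roots and 81.1 and 106.2 RPKM in shoots, and ABA8OX3, listed at 0 in both root libraries with 2.0 and 8.7 RPKM in shoots. The zeaxanthin epoxidase gene ZEP, with 7.0 and 2.7 RPKM in roots and 15.8 and 10.1 RPKM in shoots, was also on that side, and limma called ABA8OX1 alone of the 3 (adjusted p = 0.027). On the root side were late embryogenesis genes that protect drying cells. RAB16D (LOC_Os11g26750) had 10.9 and 38.7 RPKM in roots and was listed at 0 in both shoot libraries (adjusted p = 0.017). LEA3 (LOC_Os05g46480) had 340.0 and 168.0 RPKM in roots and 32.9 and 1.5 RPKM in shoots, but untreated shoots had 245.1 RPKM and untreated roots 4.5 RPKM, and limma did not call it (adjusted p = 0.11). SALT, a mannose-binding lectin, had 288.6 and 350.1 RPKM in roots and 175.5 and 9.6 RPKM in shoots, and was past 2-fold at 24 h but not at 6 h. All 3 were lower in the 24 h shoot library than in the 6 h one, or at 0 in both. The list's median was 2.35 in the untreated pair and -0.03 and -1.33 at 80 µM.

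Of 6 gibberellin loci compared, 3 were higher in shoots and 1 in roots, against 19.7% and 16.0% of all loci. SD1 (LOC_Os01g66100), the gibberellin 20-oxidase of the green revolution dwarfs, was listed at 0 in both root libraries and had 7.4 and 6.7 RPKM in shoots (adjusted p = 0.030). SLR1, the DELLA repressor, had 51.3 and 17.8 RPKM in roots and 115.9 and 97.5 RPKM in shoots (adjusted p = 0.042), and was below 2-fold at 6 h under median ratio scaling. GID2, the F-box protein that removes SLR1, had 12.1 and 30.1 RPKM in roots and 44.4 and 36.4 RPKM in shoots.

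For auxin, 2 of 6 loci compared were higher in each organ, against 19.7% of all loci in shoots and 16.0% in roots. Under median ratio scaling 1 was higher in each organ. GH3.8, which conjugates auxin to amino acids, had 24.0 and 32.0 RPKM in roots and 4.4 and 0.8 RPKM in shoots (adjusted p = 0.031), and GH3.2 had 45.4 and 3.1 RPKM in roots and 16.6 and 1.0 RPKM in shoots. The efflux carrier gene PIN1A had 24.1 and 10.3 RPKM in roots and 52.2 and 24.1 RPKM in shoots, and limma called neither of these last 2 (adjusted p = 0.16 and 0.17). For cytokinin, 2 of 6 loci were higher in shoots and 1 in roots, against the same shares of all loci. On the root side the response regulator gene RR6 had 71.6 and 55.4 RPKM in roots and 14.1 and 12.4 RPKM in shoots (adjusted p = 0.027). CKX4, a cytokinin oxidase gene, had 2.8 and 1.4 RPKM in roots and 13.7 and 6.0 RPKM in shoots. RR1 had 0.4 and 1.0 RPKM in roots and 1.8 and 8.9 RPKM in shoots, and RR4 had 13.2 and 11.7 RPKM in roots and 2.6 and 10.0 RPKM in shoots, so response regulators stood on both sides.

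Lipid metabolism, 1 of the pathways in the series title, had 3 of 6 compared loci higher in shoots and none in roots. The shares over all loci were 19.7% and 16.0%. By limma 3 of the lipid loci were called in shoots, against 11.7% of all loci. SSI2 (LOC_Os01g69080), the plastid stearoyl-ACP desaturase, had 1.1 and 1.8 RPKM in roots and 17.6 and 76.0 RPKM in shoots, 16.0-fold and 42.2-fold apart (adjusted p = 0.0049). PLD1, a phospholipase D, had 14.0 and 52.4 RPKM in roots and 109.5 and 78.8 RPKM in shoots. In sugar metabolism, 3 of 8 compared loci were higher in shoots and 1 in roots, against the same shares of all loci. CFBP1 (LOC_Os01g64660), the cytosolic fructose-1,6-bisphosphatase of sucrose synthesis, was listed at 0 in both root libraries and had 15.5 and 291.5 RPKM in shoots (adjusted p = 0.0039). SWEET14, a sucrose efflux carrier, had 20.2 and 28.2 RPKM in roots and 3.2 and 1.4 RPKM in shoots (adjusted p = 0.037). The sucrose transporter genes were not 2-fold apart at both times, SUT1 with 2.5 and 6.6 RPKM in roots and 24.0 and 11.2 RPKM in shoots, and SUT2 with 22.9 and 13.2 RPKM in roots and 24.3 and 19.4 RPKM in shoots.

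Antioxidant enzymes stood on both sides. Of 10 loci, 3 were higher in shoots and 2 in roots at both times, against 19.7% and 16.0% of all loci. Under median ratio scaling 2 were higher in each organ. By limma 3 were called in shoots and 2 in roots, against 11.7% and 9.42%. APX8 (LOC_Os02g34810), the ascorbate peroxidase of thylakoids, had 1.3 and 2.0 RPKM in roots and 66.9 and 224.4 RPKM in shoots (adjusted p = 0.0016). SODCP (LOC_Os08g44770), the plastid copper/zinc superoxide dismutase, had 3.0 and 6.8 RPKM in roots and 37.4 and 48.9 RPKM in shoots (adjusted p = 0.0057). APX4, a peroxisomal form, had 6.0 and 10.4 RPKM in roots and 21.2 and 55.1 RPKM in shoots. In roots, APX3 (LOC_Os04g14680), another peroxisomal form, had 24.0 and 23.6 RPKM against 2.0 RPKM and a listed 0 in shoots (adjusted p = 0.0076). The cytosolic APX1 had 151.9 and 92.4 RPKM in roots and 67.4 and 15.0 RPKM in shoots (adjusted p = 0.0495), and the cytosolic APX2 had 97.8 and 68.0 RPKM in roots and 61.2 and 41.0 RPKM in shoots. The cytosolic superoxide dismutase gene SODCC1 had 15.2 and 15.5 RPKM in roots and 28.5 and 18.9 RPKM in shoots. Forms of 1 compartment did not all go the same way: the stromal APX7, with 5.2 and 11.6 RPKM in roots and 13.0 and 9.6 RPKM in shoots, was 2-fold apart at 6 h alone, and the peroxisomal forms stood on opposite sides.

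Genes of low oxygen and respiration had 5 of 8 compared loci higher in roots, against 16.0% of all loci, and none in shoots. By limma 4 were called in roots, against 9.42%. AOX1A (LOC_Os04g51150), the alternative oxidase of mitochondria, had 100.3 and 56.4 RPKM in roots and 17.0 and 5.6 RPKM in shoots (adjusted p = 0.021). HB1 (LOC_Os03g13140), a non-symbiotic haemoglobin, had 52.0 and 78.2 RPKM in roots and 6.9 RPKM and a listed 0 in shoots (adjusted p = 0.0090). ADH2, an alcohol dehydrogenase, had 9.6 and 51.1 RPKM in roots and 2.8 RPKM and a listed 0 in shoots (adjusted p = 0.024). Untreated roots already had 55.5 RPKM of HB1 and 47.0 RPKM of ADH2. HB2, with 233.1 and 135.9 RPKM in roots and 39.4 and 59.1 RPKM in shoots, was 2-fold apart at both times but not called by limma (adjusted p = 0.18). PDC2, a pyruvate decarboxylase with 10.4 and 29.0 RPKM in roots and 63.7 and 54.1 RPKM in shoots, had the opposite sign. Under median ratio scaling HB2 was no longer 2-fold apart at both times and PDC2 was, so 4 loci were higher in roots and 1 in shoots.

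Defence genes that reached 5 RPKM were mostly higher in roots. Of 15 diterpenoid and defence loci, 10 were compared and 9 were higher in roots at both times, against 16.0% of all loci, none in shoots, and limma called 6 of 12 tested in roots, against 9.42%. MAS (LOC_Os04g10010), a dehydrogenase of momilactone synthesis, had 64.0 and 9.5 RPKM in roots and 1.2 RPKM and a listed 0 in shoots (adjusted p = 0.011). KSL4 and CPS4, the diterpene cyclases of the same gene cluster, had 18.8 and 5.7 RPKM and 11.2 and 7.9 RPKM in roots, and in shoots at most 0.3 and 1.3 RPKM. CYP76M8, a diterpenoid hydroxylase, had 8.1 and 1.4 RPKM in roots and 1.0 RPKM and a listed 0 in shoots. MAS, KSL4, CPS4 and CYP76M8 reached 5 RPKM in roots alone. With no minimum the median of the mean difference over both times was -2.29 in place of -2.70. Under median ratio scaling 8 of the loci were higher in roots at both times. Untreated plants had the list's median at -1.51, on the same side. Of 7 phenylpropanoid loci, 3 were higher in roots, against 16.0% of all loci, and none in shoots. The named members CAD2, a cinnamyl alcohol dehydrogenase with 25.1 and 33.2 RPKM in roots and 17.1 and 5.8 RPKM in shoots, and 4CL3, a coumarate ligase with 137.7 and 44.8 RPKM in roots and 62.3 and 39.5 RPKM in shoots, did not reach 2-fold at both times.

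Among 11 WRKY transcription factor loci, 5 were higher in roots and 1 in shoots, against 16.0% and 19.7% of all loci, and limma called 5 in roots, against 9.42%. WRKY24 (LOC_Os01g61080) had 389.0 and 232.6 RPKM in roots and 59.8 and 47.0 RPKM in shoots, 6.51-fold and 4.95-fold apart (adjusted p = 0.0095). WRKY62 (LOC_Os09g25070) had 202.6 and 163.4 RPKM in roots and 51.9 and 33.7 RPKM in shoots (adjusted p = 0.048). Its neighbour WRKY76 (LOC_Os09g25060) stood the other way, with 23.6 and 10.2 RPKM in roots and 93.6 and 52.3 RPKM in shoots, and was not called (adjusted p = 0.099). Of 7 NAC and DREB factor loci, 3 were higher in roots and 1 in shoots, against 16.0% and 19.7% of all loci, and limma called none. Under median ratio scaling 2 were higher in roots and 1 in shoots. NAC6, a stress-induced factor, had 370.8 and 416.6 RPKM in roots and 173.4 and 183.3 RPKM in shoots. DREB1B, a cold-response factor, had 1.7 and 6.6 RPKM in roots and 25.3 and 44.5 RPKM in shoots. DREB2A had 37.3 and 42.2 RPKM in roots and 19.5 and 8.3 RPKM in shoots. DREB1A, with 28.7 and 27.4 RPKM in roots and 34.5 and 59.4 RPKM in shoots, and DREB1C, with 10.1 and 5.8 RPKM in roots and 18.9 and 20.3 RPKM in shoots, had the sign of DREB1B without reaching 2-fold at both times.

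Few genes of root development reached 5 RPKM. Of 12 root development loci, 3 were compared, and these reached 5 RPKM in roots alone. Of the 3, 2 were higher in roots at both times, against 16.0% of all loci. EXPA8 (LOC_Os01g14650), an expansin, had 9.8 and 6.7 RPKM in roots and was listed at 0 in every shoot library (adjusted p = 0.0091). CSLD1, needed for root hairs, had 16.0 and 5.4 RPKM in roots and 2.3 and 1.5 RPKM in shoots (adjusted p = 0.049). WOX11, a factor of crown root emergence, had 6.1 and 7.8 RPKM in roots and 3.4 RPKM and a listed 0 in shoots. Of 6 leaf and meristem loci, 4 were compared and 2 were higher in shoots at both times, against 19.7% of all loci. The phytochrome genes PHYB, with 1.2 and 3.8 RPKM in roots and 18.7 and 22.9 RPKM in shoots, and PHYC, with 1.0 and 3.6 RPKM in roots and 39.3 and 13.9 RPKM in shoots, were called by limma (adjusted p = 0.010 and 0.020). The knotted-like gene OSH15 had 5.3 and 0.6 RPKM in roots and was listed at 0 in both shoot libraries.

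Clock genes had 2 of 8 loci higher in shoots at both times, near the 19.7% of all loci. LHY (LOC_Os08g06110) had 6.5 and 10.1 RPKM in roots and 48.8 and 248.1 RPKM in shoots (adjusted p = 0.014), and ELF3, of the evening complex, had 2.9 and 6.9 RPKM in roots and 20.7 and 43.7 RPKM in shoots (adjusted p = 0.011). GI (LOC_Os01g08700), an afternoon gene, was level at 6 h, with 99.9 RPKM in roots and 98.4 RPKM in shoots, and 20.9-fold higher in roots at 24 h, with 64.7 and 3.1 RPKM. PRR37 had 1.0 and 2.0 RPKM in roots and 19.4 and 2.1 RPKM in shoots, and PRR73 had 9.8 and 9.6 RPKM in roots and 56.6 and 14.9 RPKM in shoots, both apart at 6 h and closer at 24 h.

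The organs stood in opposite order at 6 h and 24 h at 15 of the 206 named loci compared. Of these, 12 went from shoots to roots and 3 from roots to shoots. Over all loci the shares were 6.53% and 0.882%, and with median ratio scaling the loci that turned numbered 445 and 407. The counts at named loci are therefore no trait particular to them. SUS1 (LOC_Os03g28330), a sucrose synthase, had 11.2 RPKM in roots and 201.2 RPKM in shoots at 6 h, and 18.1 RPKM in roots and 0.6 RPKM in shoots at 24 h. NIP1-1 (LOC_Os02g13870), a channel of the silicon and arsenite family, had 3.9 and 50.3 RPKM in roots and shoots at 6 h and 19.7 and 0.6 RPKM at 24 h. JAZ9 (LOC_Os03g08310), a jasmonate repressor, went the other way, from 43.5 and 1.7 RPKM in roots and shoots at 6 h to 12.4 and 63.9 RPKM at 24 h. In all 3 the shoot library supplied the larger part of the swing.

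MT2B (LOC_Os05g02070), a metallothionein, had 8.7 RPKM in roots and 79.8 RPKM in shoots at 6 h, and 61.8 and 15.4 RPKM at 24 h. ADH1 (LOC_Os11g10480), an alcohol dehydrogenase, had 4.4 and 56.9 RPKM at 6 h and 26.6 and 7.8 RPKM at 24 h. RAB16B (LOC_Os11g26780), a dehydrin, had 4.3 and 17.3 RPKM at 6 h and 8.0 and 1.7 RPKM at 24 h. These 3 moved in both organs at once, in opposite directions. With 1 library per organ and time, none of these turns was tested. At 20 µM, NIP1-1 had 9.6 and 0.9 RPKM in roots and 40.6 and 59.6 RPKM in shoots, higher in shoots at both labelled times.

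**Figure D5:**
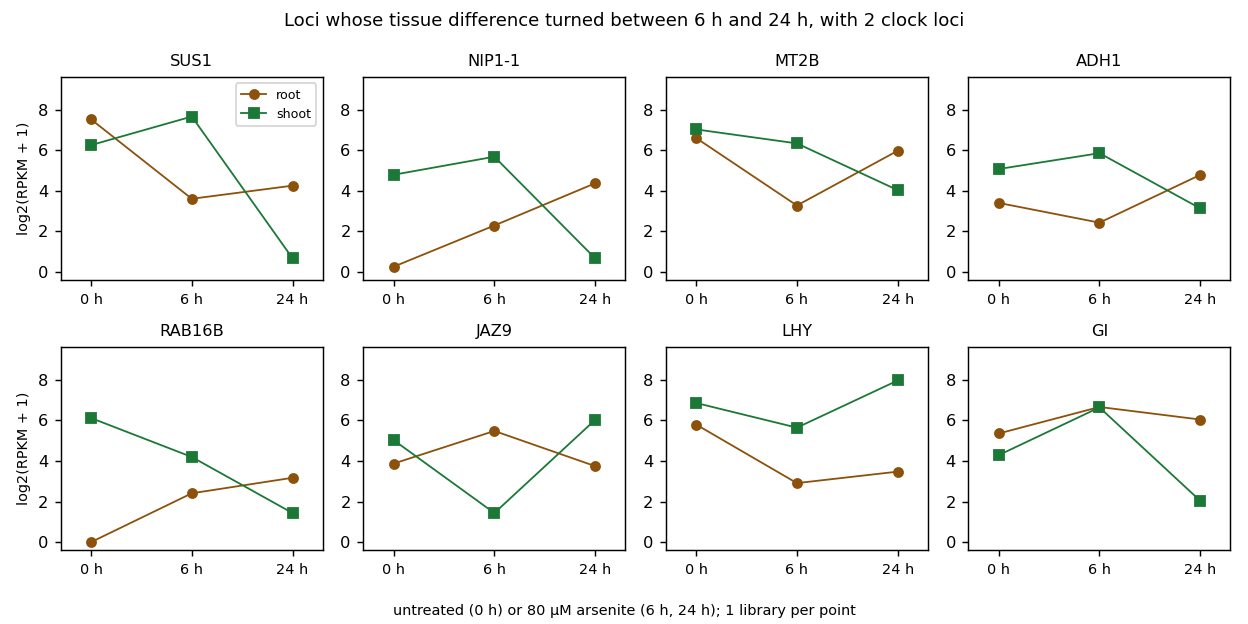
log2(RPKM + 1) of 6 loci whose tissue difference turned between 6 h and 24 h at 80 µM, with the clock genes LHY and GI, in roots (brown circles) and shoots (green squares), untreated at 0 h and at 80 µM; each point is 1 library. The lines cross between 6 h and 24 h in the first 6 panels; LHY lies above in shoots throughout and GI is level at 6 h.

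Whether an organ difference was particular to 80 µM was asked with the limma contrast of the tissue effect at 80 µM against that in the other 3 conditions. It called 1 locus (0.00536%) with a shift toward shoots and 4 loci (0.0214%) with a shift toward roots, all 5 without a checked name; 1077 and 847 loci had an unadjusted p below 0.05. Of the 10 named loci with the smallest p, 6 shifted toward roots. These were HSP23.2, HSP16.9A, HSP101, HSP26.7, HSP16.9B and APX3, with effects from -6.84 to -4.86 and adjusted p from 0.12 to 0.15. The other 4, with a shift toward shoots, were IRT2, EXPA17, PIP2-2 and NRAMP1, with effects of 4.08, 4.43, 3.92 and 3.13 and adjusted p from 0.14 to 0.16. EXPA17, an expansin of root hairs, was listed at 0 in all 4 libraries at 80 µM and stood at 30.8 RPKM in untreated roots, so both organs were level at 80 µM and apart untreated. None of the 10 passed the adjusted threshold.

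Among loci in none of the lists, LOC_Os02g01340 and LOC_Os04g33830 had the largest smaller-of-both-times difference toward shoots. LOC_Os02g01340 was listed at 0 and at 0.8 RPKM in roots, with 290.7 and 917 RPKM in shoots. LOC_Os04g33830 was listed at 0 and at 1.2 RPKM in roots, with 295 and 639.3 RPKM in shoots. Toward roots they were LOC_Os05g43895, with 399.6 and 487.8 RPKM in roots and listed at 0 in every shoot library, and LOC_Os10g36610, with 367 and 337.1 RPKM in roots and listed at 0 in both 80 µM shoot libraries. The untreated roots held 48.8 RPKM of LOC_Os05g43895 and 6.2 RPKM of LOC_Os10g36610. The tables give no gene names for these 4 loci.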

How the data were processed

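Polyadenylated RNA of rice roots and shoots was sequenced on an Illumina Genome Analyzer, per the labels' protocols. The authors deposited 1 table of RPKM per library, and reads were aligned with BWA, per the submitters' processing notes; version, genome build, annotation, counting tool and strand setting: not given in the sources used here. Since the tables hold no counts, depth is unknown and no count test was used. The 20 samples are 10 mRNA libraries and 10 miRNA libraries, which are not used here, with 1 library per group. Groups came from the sample titles.

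Differences were taken as log2(RPKM + 1), a scale that understates folds of low loci, for loci at 5 RPKM or more in any of the 4 libraries at 80 µM, with 2-fold at both times as the threshold. Folds between levels are plain ratios of RPKM and are not given against a listed 0. limma 3.58.1 in R 4.3.3 fitted tissue effects over 10 libraries with condition as a block, with Benjamini-Hochberg adjusted p over all loci tested and a threshold of 0.05; Python 3.11.15 did the rest. On simulated data with 18667 loci, 200 of them changed, the tissue effect at 80 µM was called for 0% of loci at simulated log2 changes of 2 and 3, 59.5% at 5 and 87% at 7. For the contrast of 80 µM with the other conditions these were 0%, 0%, 27.5% and 68.5%. The simulation gave the other loci no tissue effect. In the deposited data more loci were called and smaller effects passed the adjusted threshold (TIP1-1 at 1.77). The simulated shares therefore give neither the recovery in the deposited data nor the smallest effect that could be called there.

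The members and lists were chosen with earlier results of these data known. Named are, per list, up to 4 named loci with the largest smaller-of-both-times difference in the list's direction and up to 3 against it, other members singly where a contrast within a list needed them (chosen after their values were seen), the 6 leading loci that turned, and the 10 named loci with the smallest p for the contrast of conditions. A name was printed where the reference table lists the symbol on the same chromosome within 1 Mb of its expected place. The alternatives were other pseudocounts, minimums, scalings and folds, each time alone, and other sets of libraries in limma. Near-identical neighbours (HSP16.9A and HSP16.9B, NAS1 and NAS2, the OPR1 cluster, the RAB16 genes) may share reads, and their values are uncertain.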

Additional observations from a re-analysis of the deposited data

Results flagged for a closer look

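The shoot minus root difference was past 2-fold with opposite signs at 6 h and 24 h at 6 leading named loci, and this difference between the times was not tested. The 24 h difference minus the 6 h difference, in log2, was -7.63 for SUS1, -7.08 for NIP1-1, -5.07 for ADH1, -5.00 for MT2B, -3.52 for RAB16B and 6.32 for JAZ9.

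The limma contrast of the tissue effect at 80 µM with that in the other 3 conditions passed the adjusted threshold at 5 loci without a checked name, each with adjusted p = 0.0391. Of these, 4 shifted toward roots, with effects of -7.57, -7.40, -7.12 and -7.85, and 1 shifted toward shoots, with an effect of 7.11. At 3 of the 4, untreated and 20 µM roots were listed at 0 and roots at 80 µM had from 102.3 to 447.3 RPKM. The locus with the shift toward shoots had 402.5, 261.5 and 410 RPKM in untreated and 20 µM roots and 3.9 and 3.1 RPKM in roots at 80 µM, with at most 2.1 RPKM in any shoot library. These calls were lost under several alternatives, given with the dependence on processing.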

How the results depend on the processing

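No paired analysis was possible because every group holds 1 library and carries the replicate number 1; organs were paired by hour, and limma held condition as a block. Loci higher in shoots at both times numbered 1701 with a pseudocount of 5 RPKM, 1624 with a minimum of 20 RPKM, 1539 at 4-fold and 7397 from the 6 h pair alone. Loci higher in roots numbered 1349 at 4-fold and 5495 from the 24 h pair alone. Loci that turned from shoots to roots, and from roots to shoots, numbered 202 and 45 with a pseudocount of 5 RPKM, 282 and 80 with a minimum of 20 RPKM, 445 and 407 with median ratio scaling, and 136 and 22 at 4-fold. limma on the 4 libraries at 80 µM alone called 0 and 0 loci; its other alternatives called 1527 to 2230 loci higher in shoots and 1344 to 2386 in roots. For the contrast of 80 µM with the other conditions, calls toward shoots and toward roots were 15 and 72 with a pseudocount of 5 RPKM, 1 and 0 with a pseudocount of 0.1 RPKM, and 0 and 0 with no minimum, with median ratio scaling and without the untreated pair. The cause of these differences was not tested. Of the list medians, 5 changed sign: auxin to -0.40 with no minimum, phosphate to 0.038, cytokinin to -0.56 and clock to -1.27 with a minimum of 20 RPKM, and clock to -0.14 with median ratio scaling. A further 22 moved by more than their spread between the times with the same sign, among them iron to 1.01 with no minimum, abscisic acid from -0.68 to -2.26 with a minimum of 20 RPKM, and the diterpenoid list from -2.70 to between -5.18 and -1.26. Over all alternatives for the 141 genes named by the rule, 769 values kept their call (higher in shoots, higher in roots or neither), 32 lost it and 15 gained one; 6 of the 769, all of NIP1-1, SUS1 and RAB16B near 0, changed sign. The unknown depth limits values near 0, and with 1 library per group the spread between plants was not measured.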
